A study of Callithrix jacchus with 54 samples.

Results

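Genes linked with the naive state of pluripotency were followed through the induction of primordial germ cell-like cells (PGCLCs) in the common marmoset (Callithrix jacchus). KLF17, DPPA5, KLF4, KLF5, TFCP2L1, DPPA3, DPPA4, ESRRB, UTF1 and ARGFX were chosen by name, with earlier results of these data known. All 10 were found among the 14812 genes of the expression table, under the gene IDs 100413697, 100386871, 100407017, 100393352, 100414646, 100395243, 100385531, 100396940, 100392482 and 100402063 in that order. RNA was sequenced from 54 libraries, 2 biological replicates of each of 27 conditions, and all of them came from 1 embryonic stem cell line, CMES40, whose cells carry a tdTomato reporter at BLIMP1 and an eGFP reporter at NANOS3. A first series of conditions used a line with added transgenes (rtTA, tetO-BLIMP1, a SOX17 fused to the glucocorticoid receptor (SOX17-GR), and a TFAP2C fused to a destabilising domain), which is called the transgenic line here. It comprised embryonic stem cells (cjESCs) in DK20FA medium, and aggregates cultured for 12, 24, 48 and 96 h with BMP4, LIF, SCF and EGF (BLSE), with BLSE and activated SOX17 (SOX17 + BLSE), or with activated SOX17 and the same factors without BMP4 (SOX17 + LSE). A second series used the reporter line without these transgenes. It comprised cjESCs in PESFA medium, cells pre-treated for 24 h with IM12, an agonist of WNT signaling, and activin A, and aggregates then cultured in BLSE with the WNT inhibitor IWR1 (BLSE + IWR1), or with IWR1 and BMS493, an inhibitor of retinoic acid receptors (BLSE + IWR1 + BMS), for the same 4 times. BLSE + IWR1 cells were also taken at day 6 and after 20, 40 and 70 days in reconstituted ovaries (xrOvaries), in which they were aggregated with gonadal somatic cells of female mouse embryos. ROCK inhibitor was in every induction medium. The cjESCs and pre-treated cells were sorted for TRA-1-60, the induced cells at 96 h, at day 6 and in xrOvaries were sorted for tdTomato, and the aggregates at 12, 24 and 48 h and those in BLSE alone at 96 h were not sorted by a reporter. SOX17 was activated with dexamethasone, which the BLSE cultures lacked, so SOX17 and dexamethasone cannot be told apart. The transgenes, the cjESC medium and the pre-treatment likewise differed together between the SOX17 route and the IWR1 route.

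Naive pluripotency is the state of the epiblast before implantation, and primed pluripotency the state that follows. The paper assigned its cjESCs in both media to the primed state by principal component analysis. DPPA5, DPPA4 and UTF1 nonetheless had means of 430.5, 421.7 and 212.0 TPM in cjESCs in DK20FA. The term naive genes is therefore only a name for the list here and not a measure of a naive state. KLF4, KLF5, KLF17, TFCP2L1 and ESRRB encode DNA-binding transcription factors of the naive network, some of which are used more in rodents and some more in primates. DPPA3, DPPA4 and DPPA5 were named for their expression in early embryos and germ cells, UTF1 encodes a chromatin-associated factor of pluripotent cells, and ARGFX encodes a homeodomain protein known from the preimplantation primate embryo. Primate primordial germ cells are specified under BMP and WNT signaling by SOX17, PRDM1 (BLIMP1) and TFAP2C, and they express again, or keep, part of this network.

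Expression is given as TPM, transcript abundance corrected for transcript length and scaled to a fixed total, so levels may be set side by side between genes. The number of reads behind each value is unknown. The columns summed to between 790300 and 839203 TPM, between 10146 and 12688 genes were above 0 in a library, and replicates correlated at r of 0.977 to 0.994 on log2(TPM + 1). Differences are log2 differences between condition means on the scale of log2(TPM + 1), which understates changes of genes near 0, each with its standard error (SE), and a gene passed where the Benjamini-Hochberg adjusted p of limma over 11197 genes was under 0.01. Of the 173 calls on members, 50 were kept by a fit of only the libraries compared, where the spread between 2 conditions rests on 2 residual degrees of freedom. At 12 h, SOX17 itself measured 164.2 and 167.9 TPM where it had been activated and 64.6 and 62.7 TPM in BLSE alone. The transgenes were of human sequence, and how far their reads entered the values of SOX17, PRDM1 and TFAP2C is unknown. NANOS3, a germ cell gene, measured 275.8 and 233.9 TPM in the SOX17 + BLSE cells of 96 h and 1.94 and 1.05 TPM in those of BLSE. The summed level of 10 mesoderm and stromal genes (HAND1, SNAI2, VIM, DCN, TBX4, FOXF1, COL3A1, COL1A1, LUM and POSTN) was 3107 to 3509 TPM in cjESCs in PESFA and 2452 to 4386 TPM in pre-treated cells, against 731 to 1331 TPM in cjESCs in DK20FA, and it reached 4491 to 5362 TPM in BLSE at 96 h. In bulk RNA, fewer cells of a type and less RNA per cell cannot be told apart.

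DPPA5, DPPA4 and UTF1 were the most abundant of the 10 transcripts, with medians over the 54 libraries of 487 TPM, 202 TPM and 199.7 TPM. KLF5 followed with a median of 75.0 TPM, KLF4 with 58.0 TPM and DPPA3 with 42.6 TPM. KLF17 with 13.5 TPM and TFCP2L1 with 10.8 TPM were lower. ESRRB had a median of 1.995 TPM and never exceeded 8.63 TPM, and ARGFX was listed at 0 in 31 libraries. In marmoset cells of this origin 8 of the 10 genes were past the expression minimum of log2(TPM + 1) of 1.5 in 51 to 54 libraries. ESRRB was past it in 28 libraries and ARGFX in 2. Those 2 were replicate 2 of cjESCs in DK20FA (1.94 TPM) and replicate 1 of pre-treated cells (3.6 TPM). ARGFX was therefore tested only because of groups used below as starting points, and a lower ARGFX against them lends no support. Among the 10, KLF17 and TFCP2L1 varied most between replicates, with a standard deviation within conditions of 0.48 and 0.43 on the log2 scale.

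The genes differed in how far they moved across the 27 conditions and in where they were highest. UTF1 had the widest range, 8.15 on the log2 scale between its highest and lowest condition means, followed by DPPA5 with 5.37, KLF17 with 5.23 and DPPA3 with 5.0. DPPA4 varied least among the 8 genes past the expression minimum in most libraries, with a range of 1.88. KLF17, DPPA3 and ARGFX were highest in pre-treated cells and DPPA4 in cjESCs in PESFA. In contrast, KLF4 and UTF1 were highest in xrOvaries at day 20, ESRRB at day 70, TFCP2L1 at day 6, DPPA5 in SOX17 + LSE at 96 h and KLF5 in SOX17 + LSE at 48 h. The lowest condition was BLSE alone for 9 of the genes, at 96 h for KLF17, DPPA5, KLF5, DPPA3, DPPA4, ESRRB and UTF1 and at 48 h for KLF4 and TFCP2L1, and ARGFX had no single lowest condition, being at 0 in both replicates of 12 conditions. Neighbours in these orders often could not be told apart: with the 27 conditions ordered by mean, the replicates of adjacent conditions overlapped in 17 of 26 neighbouring pairs for UTF1, 18 for KLF4 and KLF5, 19 for DPPA5, 20 for TFCP2L1, DPPA3 and DPPA4, 23 for KLF17 and ESRRB and 24 for ARGFX.

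**Figure D1:**
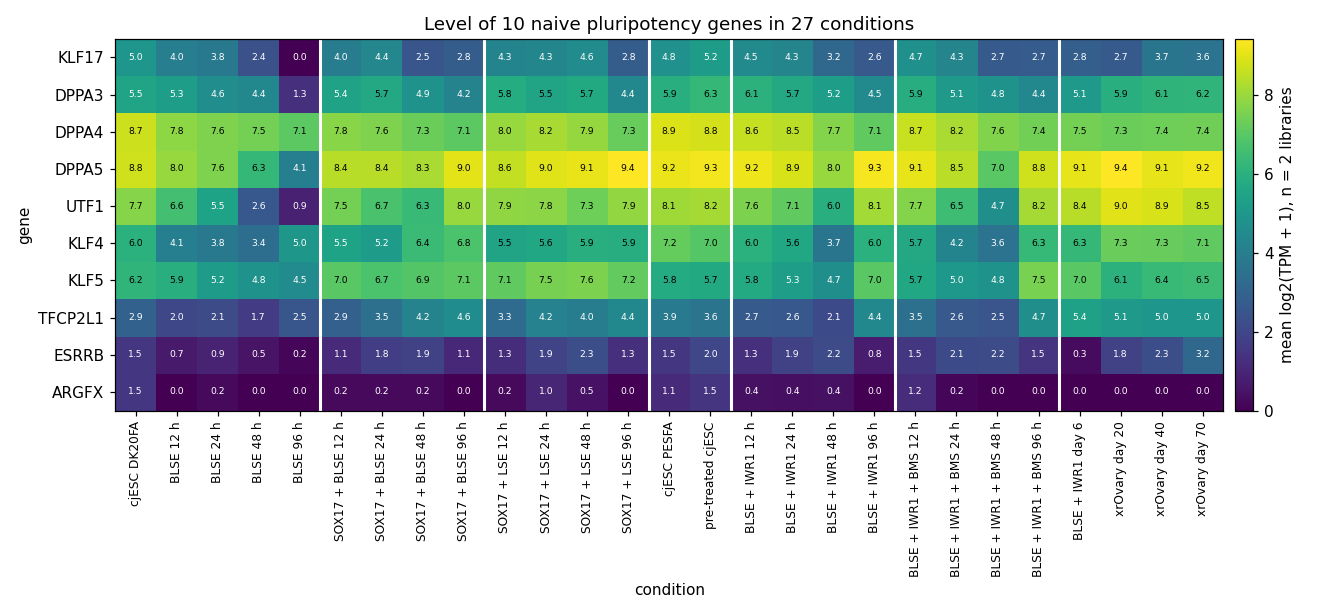
Mean log2(TPM + 1) of 2 replicates for each of the 10 genes (rows) in each of the 27 conditions (columns), with brighter cells for higher values and each mean printed in its cell. DPPA5, DPPA4 and UTF1 are the highest rows, the column for BLSE alone at 96 h is the lowest for 7 genes, and ESRRB and ARGFX are the lowest rows in most columns.

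Of the naive genes, KLF4 differed between the starting cells in both media. KLF4, a zinc finger factor also used in reprogramming, was at 62.5 and 65.6 TPM in cjESCs in DK20FA and at 178.5 and 120.8 TPM in PESFA. The groups did not overlap, and the log2 difference was 1.18 ± 0.20 (SE; limma adjusted p = 1.8e-05). KLF4 was the 1 member that passed, where 16.8% of all genes tested passed in either direction. DPPA5 (0.41, adjusted p = 0.0484) and TFCP2L1 (11.1 and 3.71 TPM in DK20FA, 17.6 and 11.5 TPM in PESFA, without overlap; 1.01, adjusted p = 0.0522) were higher on average in PESFA without passing, and 4 members were at an unadjusted p under 0.05. The mesoderm and stromal list given above had the higher sum in PESFA. Of its 10 genes, 6 were higher in PESFA and 3 lower by limma, where 8.09% and 8.73% of all genes were. The part of these genes in the KLF4 difference was not tested, and the lines differed in their transgenes. Pre-treatment with IM12 and activin A changed none of the 10 members against cjESCs in PESFA by limma, 0 also at an unadjusted p under 0.05, and 0.304% of all genes passed. KLF17 was at 43.7 and 30.6 TPM after the pre-treatment and at 23.6 and 28.8 TPM before it.

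In BLSE alone, more of the naive genes were below their cjESC level at each later time. Against cjESCs in DK20FA, 5 members were lower at 12 h, 7 at 24 h, 8 at 48 h and 9 at 96 h, where 3.18%, 6.2%, 10% and 17.1% of all genes were lower, and none was higher at any of these times. Where ARGFX was among them, its call lends no support, because a library of these cjESCs helped it past the expression minimum. These cjESCs had been sorted by a surface marker, and the BLSE aggregates were not sorted by a reporter. The mesoderm and stromal list summed to 731 to 1331 TPM in the cjESCs and to 4491 to 5362 TPM in BLSE at 96 h. The part of the sort and of these markers in the lower levels was not tested. Several of the calls at 12, 24 and 48 h rested on single libraries: DPPA5 at 12 h was lost without cjESC replicate 1 (adjusted p = 0.0193) or BLSE replicate 2 (0.0102), UTF1 at 12 h without cjESC replicate 1 (0.0116), DPPA3 without any 1 of the 4 at 24 h (0.0137 to 0.0995) and without BLSE replicate 2 at 48 h (0.0704), and ARGFX at 24 h without either cjESC replicate or BLSE replicate 1 (0.0105 to 0.0315). UTF1 fell furthest. It was at 247.2 and 176.7 TPM in cjESCs, 88.6 and 107.0 TPM at 12 h, 37.6 and 49.0 TPM at 24 h, 4.83 and 5.31 TPM at 48 h, and 0.60 and 1.08 TPM at 96 h. Each time lay below the one before without overlap, and the difference at 96 h was −6.85 ± 0.19 (limma adjusted p = 9.47e-27). DPPA5, which encodes a KH domain RNA-binding protein, went from 449.4 and 411.7 TPM to 81.6 and 74.3 TPM at 48 h and to 13.8 and 17.8 TPM at 96 h, a difference of −4.69 ± 0.16 (adjusted p = 1.16e-23). DPPA3, a maternal factor that protects DNA methylation in the early embryo and is kept in germ cells, went from 45.1 and 43.4 TPM to 1.11 and 1.76 TPM at 96 h, or −4.23 ± 0.24 (adjusted p = 1.09e-16). The replicates of these genes at 96 h were all below every cjESC library. KLF17 was at 31.7 and 28.8 TPM in cjESCs, at 14.2 and 16.9 TPM by 12 h and at 4.49 and 3.79 TPM by 48 h, and it was listed at 0 in both BLSE libraries at 96 h.

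The other members differed in the extent and the time of their changes, in the same comparison of sorted cjESCs with unsorted aggregates. DPPA4 was at 497.1 and 346.4 TPM in cjESCs and still at 145.0 and 120.0 TPM at 96 h, a difference of −1.65 ± 0.13. KLF5 was at 72.7 and 69.0 TPM and at 23.4 and 21.2 TPM, or −1.62 ± 0.17. KLF4 followed a different course, being the member with the largest drop at 12 h (16.0 and 16.0 TPM; −1.94 ± 0.20, adjusted p = 6e-09), lowest at 48 h (9.35 and 9.75 TPM), and at 25.4 and 36.8 TPM at 96 h, where the difference from cjESCs was −1.04 ± 0.20 (adjusted p = 4.43e-05). The change of KLF4 between 48 and 96 h was not tested. TFCP2L1 measured 11.1 and 3.71 TPM in the starting cjESCs, against 3.36 and 6.79 TPM by 96 h, groups that overlapped (−0.37 ± 0.39, adjusted p = 0.496). ESRRB passed at 96 h (−1.31 ± 0.31) from levels of 1.56 and 2.02 TPM. This call was lost without cjESC replicate 2 (adjusted p = 0.0125) or without BLSE replicate 2 (adjusted p = 0.0177). ARGFX, at 1.76 and 1.94 TPM in these cjESCs, was at 0 in both libraries already at 12 h. It was at 0 and 0.38 TPM at 24 h and at 0 in both libraries at 48 and 96 h.

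The comparison of SOX17 + BLSE with BLSE asked which of these genes were held up when SOX17 was active. The number of members higher with SOX17 was 3 at 12 h, 5 at 24 h, 6 at 48 h and 8 at 96 h, where 1.61%, 5.55%, 10.3% and 29.3% of all genes were higher. The median difference over the 10 members was 0.44, 0.97, 1.66 and 2.30 at these times, beside 0.05, 0.10, 0.10 and 0.24 over all genes. Because the members were chosen with earlier results of these data known, these counts and medians only describe the list. None of the 10 was lower. KLF4 and KLF5 were the first to separate: at 12 h KLF5 was at 135.0 and 124.0 TPM with SOX17 and at 62.9 and 55.0 TPM without (1.12 ± 0.17, adjusted p = 3.4e-05), and KLF4 was at 46.1 and 41.6 TPM against 16.0 and 16.0 TPM (1.40 ± 0.20, adjusted p = 9e-06). KLF5 with SOX17 was also above its level in cjESCs, 72.7 and 69.0 TPM, by 0.86 at 12 h (adjusted p = 3.78e-04) and by 0.75 at 48 h (adjusted p = 5.89e-04), calls that held with any 1 library left out, while at 24 h the difference of 0.58 did not pass (adjusted p = 0.0101). UTF1 was the other member that passed at 12 h (0.84, adjusted p = 0.00386), but not when any 1 of the 4 libraries was left out (adjusted p of 0.0113 to 0.0977). At 24 h DPPA5 (0.83, adjusted p = 2.71e-04) and DPPA3 (1.06, adjusted p = 0.00214) were added. The DPPA5 call was lost without BLSE replicate 1 (adjusted p = 0.0216) or SOX17 + BLSE replicate 2 (0.0227), and that of DPPA3 without BLSE replicate 1 (0.0452) or either SOX17 + BLSE replicate (0.0115 and 0.038).

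At 48 h, when none of these aggregates had been sorted, UTF1 was at 83.2 and 77.1 TPM with SOX17 and at 4.83 and 5.31 TPM without it, a difference of 3.74 ± 0.19 (adjusted p = 1.78e-17). KLF4 was at 84.7 and 87.5 TPM against 9.35 and 9.75 TPM (3.05 ± 0.20, adjusted p = 1.83e-14). DPPA5 was at 276.1 and 336.8 TPM against 81.6 and 74.3 TPM, a difference of 1.96 ± 0.16. These groups were far apart in every replicate. KLF5 was at 120.5 and 119.7 TPM against 26.7 and 27.4 TPM (2.11 ± 0.17), and TFCP2L1, a CP2-family factor of the naive network, at 15.3 and 20.5 TPM against 1.74 and 2.72 TPM (2.55 ± 0.39, adjusted p = 4.36e-06). ESRRB passed as well (1.36, adjusted p = 9.03e-04), with 4.01 and 1.61 TPM against 0.56 and 0.28 TPM, but not without BLSE replicate 2 (adjusted p = 0.0239) or SOX17 + BLSE replicate 1 (0.0832). KLF17 was equally low in both media, at 3.96 and 5.83 TPM with SOX17 and 4.49 and 3.79 TPM without (0.18 ± 0.44), and DPPA3 (0.46) and DPPA4 (−0.13) did not pass. The 2 sets of aggregates also differed in their other cell markers, since the mesoderm and stromal list summed to 3817 to 3923 TPM in BLSE at 48 h and to 1476 to 1648 TPM in SOX17 + BLSE, and its part in these differences was not tested.

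**Figure D2:**
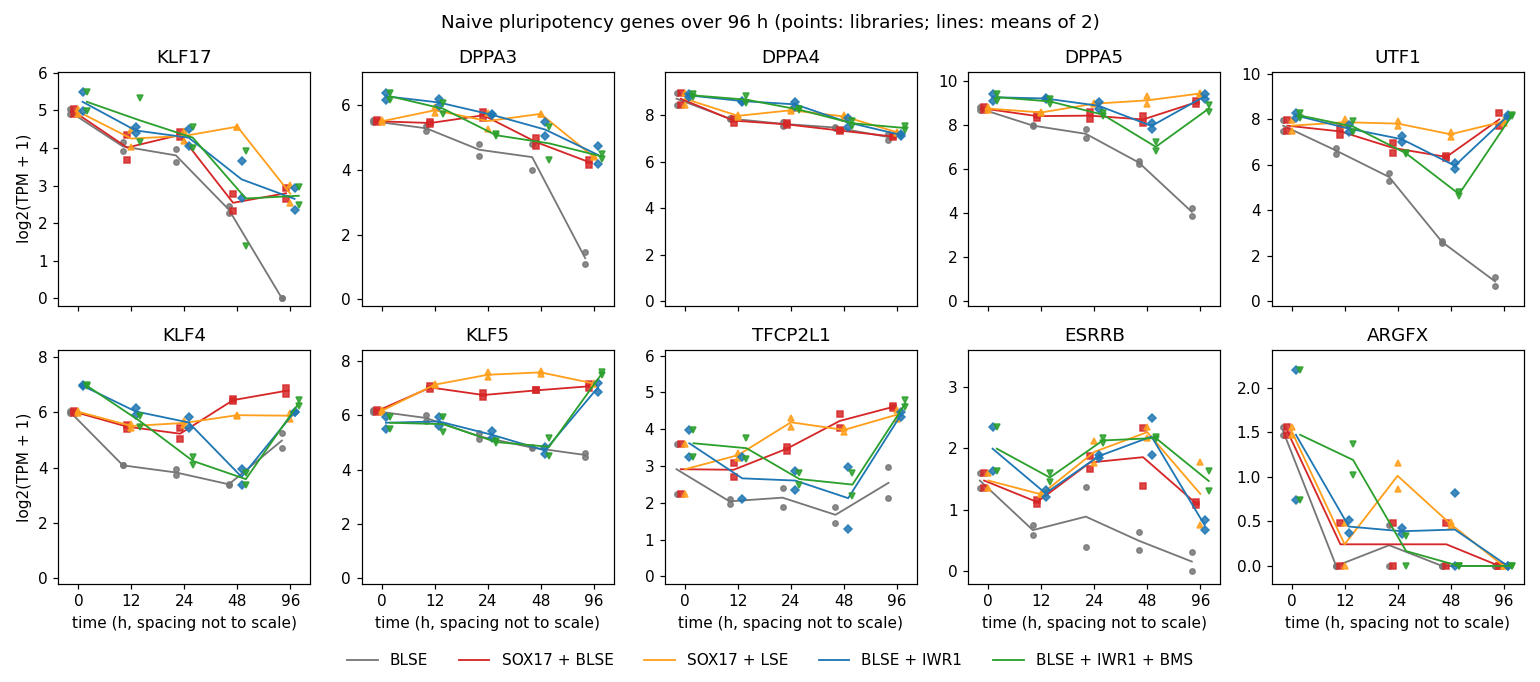
Log2(TPM + 1) of each gene (1 panel per gene) against hours of induction in 5 culture conditions, with points for libraries and lines through the means of 2 replicates. The courses with BLSE and SOX17 start from cjESCs in DK20FA and those with IWR1 from pre-treated cells. UTF1 and DPPA5 drop steadily in BLSE alone and are lowest at 48 h in BLSE + IWR1, and KLF17 and DPPA4 end below their starting level in every course.

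At 96 h 8 members passed. Among them the difference was larger than at 48 h for UTF1, DPPA5, DPPA3, KLF5 and KLF17 and smaller for KLF4, TFCP2L1 and ESRRB, a change that was not tested. UTF1 was at 308.2 and 208.9 TPM in tdTomato-positive SOX17 + BLSE cells and at 0.60 and 1.08 TPM in BLSE (7.13 ± 0.19, adjusted p = 3.32e-27), and DPPA5 was at 496.6 and 552.9 TPM against 13.8 and 17.8 TPM (4.97 ± 0.16, adjusted p = 1.39e-24). DPPA3 (2.96), KLF5 (2.53), TFCP2L1 (2.06) and KLF4 (1.80) passed too. KLF17 was at 6.67 and 5.30 TPM against 0 in both BLSE libraries. DPPA4 did not differ detectably, at 137.7 and 130.3 TPM against 145.0 and 120.0 TPM (0.02 ± 0.13, adjusted p = 0.904). ESRRB passed at 0.94 (adjusted p = 0.00891) and failed when any 1 of the 4 libraries was left out (adjusted p of 0.0155 to 0.0868) and with quantile scaling (0.0801). The 96 h comparison sets sorted cells against an unsorted culture. In the latter the mesoderm and stromal list summed to 4491 to 5362 TPM, against 168 to 194 TPM in the sorted cells, and 7 early germ cell genes (SOX17, PRDM1, TFAP2C, NANOS3, KIT, PDPN and DND1) to 259 to 297 TPM, against 2779 to 3780 TPM over all tdTomato-positive libraries at 96 h. SOX17, PRDM1 and TFAP2C were also carried as transgenes in the transgenic line, and the part of transgene reads in these sums was not tested. The part of the sort in the differences at 96 h was not tested, whereas those at 48 h were between unsorted cultures. The growth of the SOX17 effect from 12 to 48 h was itself tested: it was 2.90 ± 0.26 for UTF1 (adjusted p = 2.71e-09), 1.65 ± 0.28 for KLF4 (adjusted p = 1.94e-04) and 1.53 ± 0.22 for DPPA5 (adjusted p = 2.53e-05), 3 of the 10 members, where 2.46% of all genes passed in either direction.

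**Figure D3:**
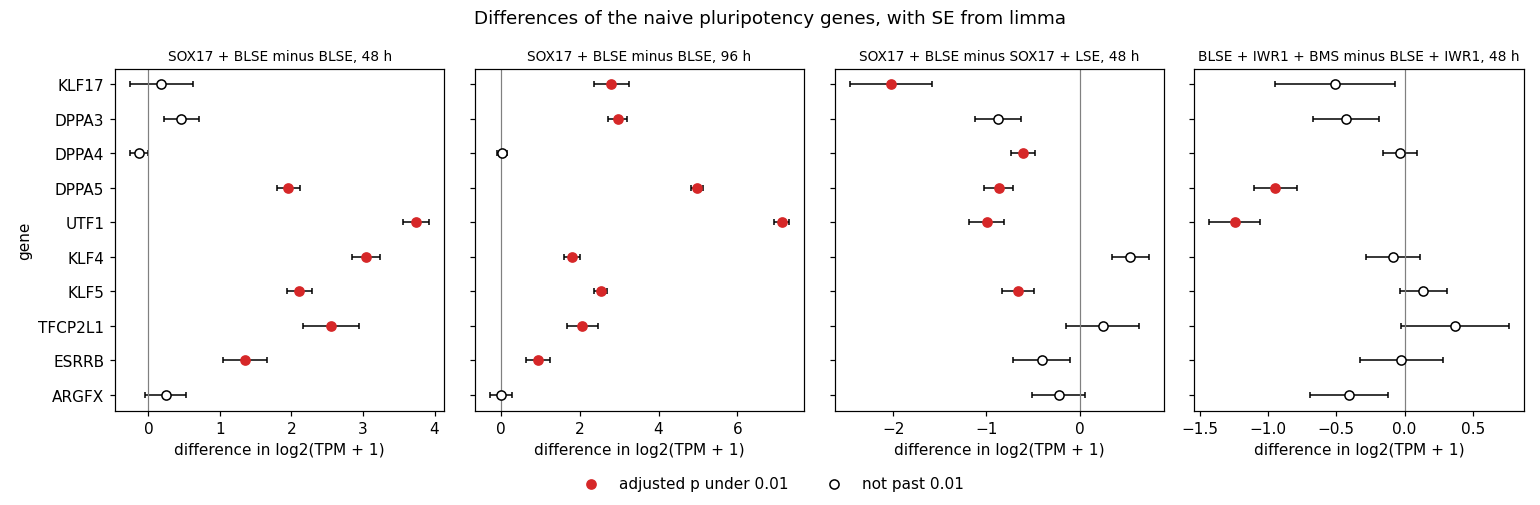
Log2 difference with its standard error for each of the 10 genes in 4 comparisons, SOX17 + BLSE minus BLSE at 48 h and at 96 h, SOX17 + BLSE minus SOX17 + LSE at 48 h, and BLSE + IWR1 with minus without BMS493 at 48 h. Red marks an adjusted p under 0.01. UTF1 shows the largest positive difference in both comparisons with BLSE, and the genes that passed in the other 2 comparisons all lie below 0.

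Within cultures with active SOX17, some of the naive genes were lower with BMP4 at 24 and 48 h. Between SOX17 + BLSE and SOX17 + LSE, 0 members passed at 12 h by limma (1 at an unadjusted p under 0.05; 0.277% of all genes passed), 3 were lower with BMP4 at 24 h (1.05% of all genes) and 5 at 48 h (3.4%). UTF1, at 91.1 and 122.1 TPM with BMP4 and 206.4 and 240.7 TPM without at 24 h (−1.07 ± 0.19, adjusted p = 1.89e-04), had the largest difference at that time. Its call at 24 h was lost without SOX17 + BLSE replicate 1 (adjusted p = 0.0279) or SOX17 + LSE replicate 2 (0.0121). At 48 h it was at 83.2 and 77.1 TPM with BMP4 and at 149.3 and 173.1 TPM without (−1.0 ± 0.19, adjusted p = 1.69e-04), and this call held when any 1 library was left out. KLF17 showed the largest difference at 48 h, with 3.96 and 5.83 TPM against 22.7 and 22.8 TPM, a level close to that of the 12 and 24 h aggregates (−2.03 ± 0.44, adjusted p = 0.00106). DPPA5 was at 276.1 and 336.8 TPM against 493.2 and 630.5 TPM (−0.87 ± 0.16, adjusted p = 1.17e-04). DPPA4 (−0.61, adjusted p = 7.42e-04) and KLF5 (−0.66, adjusted p = 0.00654) passed as well, and DPPA3 did not (−0.88, adjusted p = 0.0113). KLF4, at 84.7 and 87.5 TPM with BMP4 and 59.6 and 57.9 TPM without (0.54, adjusted p = 0.0624), and TFCP2L1, at 15.3 and 20.5 TPM against 14.3 and 15.3 TPM (0.24, adjusted p = 0.78), had positive differences that did not pass. These aggregates were not sorted, and 7 amnion genes (GATA3, TFAP2A, ISL1, GABRP, VTCN1, HEY1 and TFAP2B) summed to 248 to 298 TPM with BMP4 and 104 to 113 TPM without at 24 h, and to 361 to 377 TPM and 111 to 134 TPM at 48 h, none of them at 0 throughout a group. Of the 7, 4 were higher with BMP4 at 24 h and 5 at 48 h, and their part in the differences of the naive genes was not tested.

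Without BMP4, some of these genes did not differ detectably at 48 h between the unsorted SOX17-active aggregates and the sorted cjESCs, and others did differ in level. Against cjESCs in DK20FA, DPPA5 (0.37, limma adjusted p = 0.0877), UTF1 (−0.38, adjusted p = 0.152) and KLF17 (−0.40, adjusted p = 0.587) did not pass in SOX17 + LSE at 48 h. DPPA4 was at 233.5 and 255.9 TPM against 497.1 and 346.4 TPM in cjESCs, and ARGFX at 0.41 and 0.36 TPM against 1.76 and 1.94 TPM. TFCP2L1 was on the higher side, at 14.3 and 15.3 TPM against 11.1 and 3.71 TPM. KLF5, at 198.9 and 182.7 TPM, was higher than in cjESCs (1.42 ± 0.17, adjusted p = 8.46e-08) and its condition mean was the highest of the series, overlapping the next.

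The differences with BMP4 were moderate relative to 2 replicates a group. At 48 h, KLF17 no longer passed without SOX17 + BLSE replicate 1 (adjusted p = 0.0343) or either SOX17 + LSE replicate (0.014 and 0.0144), DPPA5 without SOX17 + BLSE replicate 1 (0.0132) or SOX17 + LSE replicate 2 (0.0157), DPPA4 without the same libraries (0.0183 and 0.0249), and KLF5 without any 1 of the 4 (0.0273 to 0.0786). At 24 h, KLF5 (−0.75) and DPPA4 (−0.61) were both lost without any 1 of the 4 libraries (0.0234 to 0.0974 and 0.0121 to 0.0518). By 96 h, when both populations had been sorted for tdTomato, KLF17 was at 6.67 and 5.30 TPM with BMP4 and 7.12 and 4.85 TPM without, overlapping ranges (0.01 ± 0.44). KLF4 was the 1 member higher with BMP4 at 96 h, at 101.6 and 117.0 TPM against 62.2 and 53.9 TPM (0.90 ± 0.20, adjusted p = 0.00143), where 2.55% of all genes were higher. It did not pass without SOX17 + BLSE replicate 2 (adjusted p = 0.0333) or SOX17 + LSE replicate 2 (0.037).

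The tdTomato-positive cells at 96 h were set against their own cjESCs. In SOX17 + BLSE, KLF5 (126.0 and 141.3 TPM against 72.7 and 69.0 TPM; 0.91 ± 0.17, adjusted p = 3.15e-05), TFCP2L1 (23.7 and 23.02 TPM against 11.1 and 3.71 TPM; 1.69 ± 0.39, adjusted p = 4.31e-04) and KLF4 (101.6 and 117.0 TPM against 62.5 and 65.6 TPM; 0.76 ± 0.20, adjusted p = 0.00142) were higher than in cjESCs in DK20FA, 3 of 10 where 25.6% of all genes were higher, a share near that of all genes. The TFCP2L1 call was lost without cjESC replicate 2 (adjusted p = 0.0594) and the KLF4 call without cjESC replicate 1 (0.0152) or SOX17 + BLSE replicate 2 (0.0254) and with median-ratio scaling (0.011). KLF17 (−2.17 ± 0.44, adjusted p = 7.9e-05), DPPA4 (−1.62 ± 0.13, adjusted p = 3.03e-13), DPPA3 (−1.27 ± 0.24, adjusted p = 3.78e-05) and ARGFX were lower, 4 of 10 where 17.6% of all genes were lower. The ARGFX call lends no support to this count, because a library of these cjESCs helped ARGFX past the expression minimum. DPPA5 (0.28, adjusted p = 0.128) and UTF1 (0.28, adjusted p = 0.209) had not moved detectably, although UTF1 had been at 83.2 and 77.1 TPM at 48 h.

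The IWR1 route gave a partly like picture, with KLF4 in the other direction and TFCP2L1 not passing. Against cjESCs in PESFA, BLSE + IWR1 cells at 96 h had KLF5 higher (115.7 and 143.8 TPM against 53.5 and 55.7 TPM; 1.23 ± 0.17, adjusted p = 1.92e-07), 1 of 10 where 25.5% of all genes were higher. KLF17 (6.72 and 4.07 TPM against 23.6 and 28.8 TPM; −2.11 ± 0.44, adjusted p = 1.09e-04), DPPA4 (145.8 and 134.6 TPM against 488.2 and 486.1 TPM; −1.79 ± 0.13), DPPA3 (25.8 and 17.2 TPM against 67.6 and 52.6 TPM; −1.46 ± 0.24), KLF4 (63.4 and 64.0 TPM against 178.5 and 120.8 TPM; −1.19 ± 0.20, adjusted p = 3.69e-06) and ARGFX were lower, 5 of 10 where 17.9% of all genes were lower. The ARGFX call was lost without PESFA replicate 1 (adjusted p = 0.0172). None of the other groups overlapped. DPPA5 (0.14), UTF1 (0.06) and TFCP2L1 (0.48, adjusted p = 0.315) did not pass. KLF4 thus moved up on the SOX17 route and down on the IWR1 route, and the difference between the 2 changes was −1.95 ± 0.28 (limma interaction, adjusted p = 2.8e-06). It was the only member of the 10 to pass this test, which 11.4% of all genes passed in either direction. The 2 routes used different cjESC media and lines, and the level of KLF4 in the stem cells, given above, differed more than that in the PGCLCs. Between the tdTomato-positive cells themselves KLF4 was lower in BLSE + IWR1 than in SOX17 + BLSE (−0.77 ± 0.20, adjusted p = 0.00779; 1 of 10 members, 4.05% of all genes lower), a call lost without any 1 of the 4 libraries (adjusted p of 0.0196 to 0.108).

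On the IWR1 route DPPA5, KLF4, KLF5, TFCP2L1 and UTF1 had their lowest mean at 48 h, whereas KLF17, DPPA3, DPPA4 and ARGFX had lower means still at 96 h. Against pre-treated cells, 9 of 10 members were lower in BLSE + IWR1 at 48 h, where 9.27% of all genes were lower. ARGFX was among the 9, and its call lends no support, because a library of pre-treated cells helped it past the expression minimum. KLF4 was at 125.3 and 122.5 TPM in pre-treated cells and at 9.41 and 14.5 TPM at 48 h (−3.30 ± 0.20, adjusted p = 1.65e-15), and it was at 63.4 and 64.0 TPM at 96 h. UTF1 was at 308.3 and 263.9 TPM, then 66.7 and 55.8 TPM (−2.21 ± 0.19, adjusted p = 8.58e-12), and at 271.1 and 292.6 TPM at 96 h. Both genes were separated at every step without overlap. DPPA5 followed the same course, at 686.1 and 553.1 TPM, 276.8 and 223.2 TPM (−1.31 ± 0.16), and 690.4 and 575.7 TPM. KLF5, at 60.8 and 44.4 TPM, 23.1 and 27.3 TPM (−1.02 ± 0.17), and 115.7 and 143.8 TPM, ended above its start. KLF17 (−2.06), TFCP2L1 (−1.49), DPPA3 (−1.03), DPPA4 (−1.17) and ARGFX (−1.06) were also lower at 48 h. Of these, the calls of KLF17, TFCP2L1, DPPA3 and ARGFX were lost without pre-treated replicate 1 (adjusted p of 0.0125, 0.0865, 0.0239 and 0.434), and without BLSE + IWR1 replicate 1 for KLF17 (0.0233), TFCP2L1 (0.26) and ARGFX (0.143) or replicate 2 for DPPA3 (0.0373). ESRRB was at 4.09 and 2.11 TPM in pre-treated cells and at 2.7 and 4.62 TPM at 48 h, with overlap. The 96 h cells were sorted for tdTomato and the 48 h aggregates were not, so a rise in the cells and a choice of cells by the sort cannot be told apart. The pre-treated cells had been sorted by a surface marker, and the part of that sort in the lower levels at 48 h was not tested.

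Beside BLSE alone at 48 h, some of these genes were higher with IWR1. UTF1 was at 66.7 and 55.8 TPM against 4.83 and 5.31 TPM (3.35 ± 0.19, adjusted p = 3.73e-16), and DPPA5 was at 276.8 and 223.2 TPM against 81.6 and 74.3 TPM (1.66 ± 0.16). ESRRB (1.69, adjusted p = 4.42e-05) and DPPA3 (0.85, adjusted p = 0.0063) passed in the same direction, so that 4 of 10 members were higher where 11.2% of all genes were. The DPPA3 call was lost without BLSE replicate 2 (adjusted p = 0.279) or BLSE + IWR1 replicate 1 (0.106). The other members did not pass: KLF17 was at 5.41 and 11.6 TPM with IWR1 and 4.49 and 3.79 TPM without (0.81, adjusted p = 0.162), without overlap, KLF4 was at 9.41 and 14.5 TPM against 9.35 and 9.75 TPM (0.27, adjusted p = 0.315), KLF5 at 23.1 and 27.3 TPM against 26.7 and 27.4 TPM (−0.11), and TFCP2L1 at 1.44 and 6.82 TPM against 1.74 and 2.72 TPM (0.45). In SOX17 + BLSE at the same time, KLF4 was at 84.7 and 87.5 TPM and KLF5 at 120.5 and 119.7 TPM. The mesoderm and stromal list summed to 1590 to 1616 TPM with IWR1 and 3817 to 3923 TPM in BLSE alone, and its part in these differences was not tested. IWR1 and BLSE-alone cultures differed in line and pre-treatment as well as in IWR1.

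With BMS493 added on top of IWR1, a few of the naive genes were lower at 24 or 48 h. None of the 10 members passed at 12 h (2 at an unadjusted p under 0.05, and 0% of all genes by limma). At 24 h KLF4 was at 16.3 and 19.8 TPM with BMS493 and at 41.9 and 56.7 TPM without (−1.39 ± 0.20, adjusted p = 1.75e-04), 1 of only 5 genes of the 11197, or 0.0447%, that were lower. This call was lost without BLSE + IWR1 replicate 2 (adjusted p = 0.033) or BLSE + IWR1 + BMS replicate 1 (0.0196). At 48 h UTF1 was at 26.97 and 23.4 TPM against 66.7 and 55.8 TPM (−1.25 ± 0.19, adjusted p = 2.2e-05) and DPPA5 at 147.9 and 111.1 TPM against 276.8 and 223.2 TPM (−0.95 ± 0.16, adjusted p = 8.9e-05), 2 of 10 members lower where 1.96% of all genes were. The groups did not overlap, and the DPPA5 call was lost without BLSE + IWR1 + BMS replicate 2 (adjusted p = 0.0107). The BMS493 replicates at 48 h differed from each other: replicate 1 held 1089 TPM of CER1, an endoderm gene, and 354 TPM of GATA6, and replicate 2 held 6.25 and 125.8 TPM. KLF17, at 14.2 TPM in replicate 1 and 1.61 TPM in replicate 2, differed with them, and the relation was not tested. The mesoderm and stromal list summed to 2756 to 3402 TPM with BMS493 at 48 h and to 1590 to 1616 TPM without, and its part in the UTF1 and DPPA5 differences was not tested. At 96 h 0 members passed by limma (4 at an unadjusted p under 0.05), where 0.732% of all genes passed. DPPA5 was at 383.4 and 481.2 TPM with BMS493 and 690.4 and 575.7 TPM without (−0.55 ± 0.16, adjusted p = 0.0479), and KLF5 at 193.7 and 179.1 TPM against 115.7 and 143.8 TPM (0.53 ± 0.17, adjusted p = 0.09).

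From 96 h to day 6 in BLSE + IWR1 none of the 10 members passed by limma (3 at an unadjusted p under 0.05; 2.75% of all genes passed). TFCP2L1 had the largest difference, at 47.4 and 36.3 TPM on day 6 against 19.3 and 21.1 TPM at 96 h (1.01 ± 0.39, adjusted p = 0.137), without overlap. In xrOvaries the naive genes then split again. From day 6 to day 20, KLF4 (132.6 and 181.2 TPM against 83.2 and 70.4 TPM; 1.01 ± 0.20, adjusted p = 1.21e-04) and ESRRB (2.72 and 2.31 TPM against 0.48 and 0 TPM; 1.53 ± 0.31, adjusted p = 1.72e-04) were higher, where 6.56% of all genes were. KLF5 was lower, at 56.7 and 77.4 TPM against 130.8 and 125.7 TPM (−0.94 ± 0.17, adjusted p = 4.5e-05), where 13.8% of all genes were. The mesoderm and stromal list summed to 239.7 to 261.9 TPM on day 6 and 642 to 711 TPM on day 20, where VIM alone was at 637.7 and 706.9 TPM and 5 of the 10 genes (SNAI2, DCN, TBX4, FOXF1 and LUM) were at 0 in both libraries. The part of these markers in the differences was not tested. DPPA3 (50.4 and 71.4 TPM against 37.2 and 30.8 TPM; 0.81, adjusted p = 0.0101) and UTF1 (465.1 and 572.7 TPM against 332.5 and 356.9 TPM; 0.58, adjusted p = 0.0154) lay without overlap on the higher side and did not pass. The KLF4 call was lost without day 20 replicate 2 (adjusted p = 0.014) and the ESRRB call without day 6 replicate 2 (0.0131).

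Between day 20 and day 70, ESRRB was the 1 member higher, at 7.38 and 8.63 TPM against 2.72 and 2.31 TPM (1.36 ± 0.31, adjusted p = 9.08e-04), where 3.89% of all genes were higher. At day 40 it was at 3.16 and 4.66 TPM, between the other 2 times. These were the highest ESRRB levels of the series and still low beside the other members. The call was lost without day 20 replicate 2 (adjusted p = 0.0154) or day 70 replicate 2 (0.018). From day 6 to day 70, ESRRB (2.88 ± 0.31, adjusted p = 6.62e-10), DPPA3 (75.1 and 68.2 TPM against 37.2 and 30.8 TPM; 1.06 ± 0.24, adjusted p = 5.06e-04) and KLF4 (127.8 and 154.6 TPM against 83.2 and 70.4 TPM; 0.87 ± 0.20, adjusted p = 4.41e-04) were higher, 3 of 10 where 7.46% of all genes were. KLF5 was lower (−0.56, adjusted p = 0.00778), where 23.8% of all genes were. The KLF5 call was lost without any 1 of the 4 libraries (adjusted p of 0.0297 to 0.0535) and with median-ratio (0.156) or quantile scaling (0.131), that of KLF4 without day 6 replicate 2 (0.0149) or day 70 replicate 2 (0.0175), and that of DPPA3 without day 6 replicate 2 (0.0151) or day 70 replicate 1 (0.0102). DPPA5 stayed between 511.8 and 680.2 TPM, UTF1 between 340.6 and 572.7 TPM, TFCP2L1 between 28.3 and 35.4 TPM and DPPA4 between 146.8 and 169.9 TPM over the 6 xrOvary libraries. KLF17 was at 3.73 to 12.7 TPM. A list of 8 late germ cell genes, DAZL and DDX4 among them, summed to 15.02 to 21.8 TPM on day 6, 52.6 to 68.0 TPM on day 20 and 184.2 to 188.2 TPM on day 70. Marmoset transcripts of 5 gonadal somatic genes summed to no more than 2.34 TPM in xrOvaries and to 6.51 to 8.05 TPM in cjESCs in PESFA. The gonadal somatic cells were of mouse and reads were mapped to the marmoset genome, so this sum cannot show whether such cells were carried over.

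**Figure D4:**
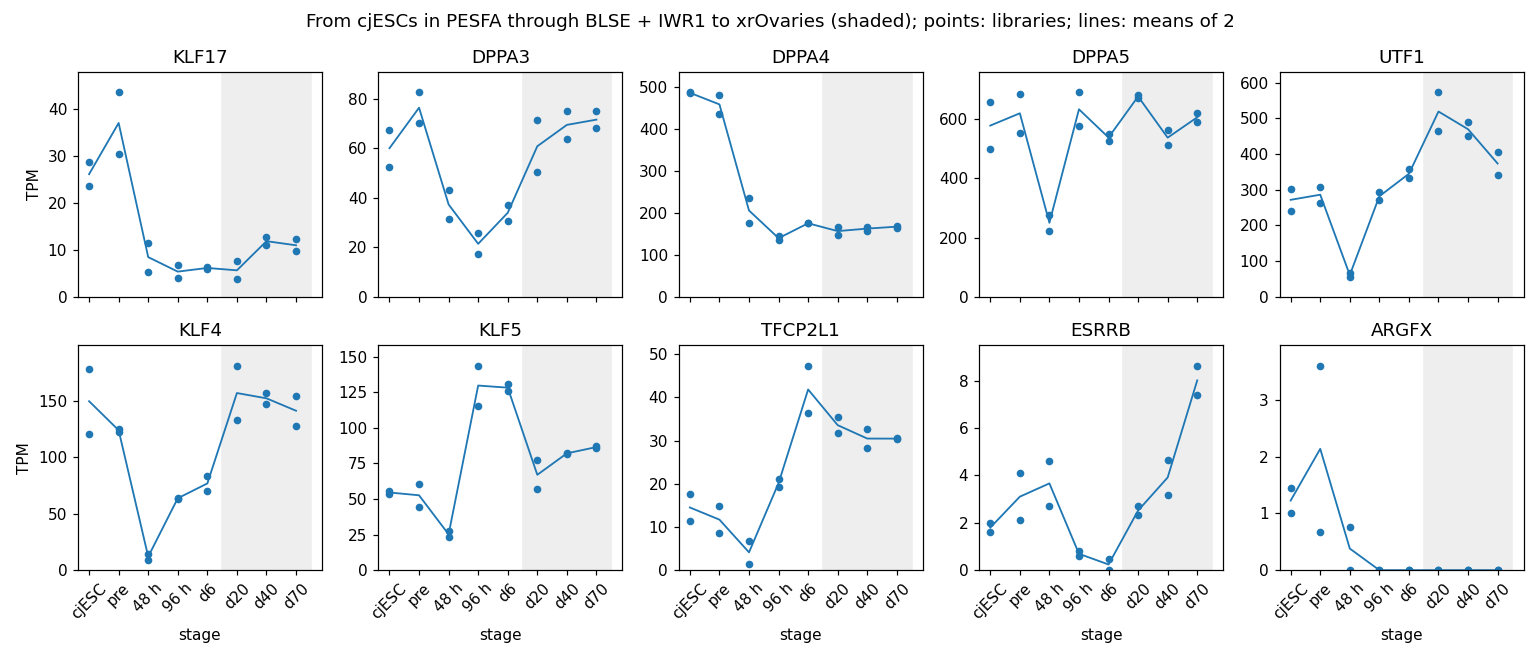
TPM of each gene (1 panel per gene, linear axes) along the BLSE + IWR1 route, from cjESCs in PESFA through pre-treated cells, 48 h, 96 h, day 6 and xrOvaries at days 20, 40 and 70, with points for the 2 libraries and a line through the means. The xrOvary days are shaded. DPPA5, UTF1 and KLF4 have their low point at 48 h and are high in xrOvaries, DPPA4 drops once and lies between 134.6 and 176.0 TPM from 96 h on, and ESRRB is highest at day 70.

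Other naive and core pluripotency genes were counted for background. Of a list of 20 further naive genes 13 were in the table and 12 were tested. In BLSE at 96 h against cjESCs in DK20FA, 1 of the 12 was higher, 9 were lower and 2 did not pass. In SOX17 + BLSE at 96 h against the same cjESCs, 2 were higher (TBX3, 3.15; SOX15, 2.01), 8 were lower (NODAL, −5.84, and NR5A2, −4.75, among them) and 2 did not pass, with a list median of −1.88. In SOX17 + BLSE against BLSE, 6 were higher and 6 did not pass at 48 h, with SOX15 (2.07), KHDC3L (1.83) and TDGF1 (1.63) among the higher and NODAL at −0.84 (adjusted p = 0.129), and at 96 h 6 were higher (GDF3, 4.89; SOX15, 4.42) and 2 lower (NR5A2, −2.62; TBX3, −1.43). Of 6 core pluripotency genes, 4 were higher and 1 lower with SOX17 at 96 h, NANOG by 8.35 and POU5F1 by 5.72. From day 6 to day 20, 3 of the 12 further naive genes were higher and 5 lower.

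The members did not share 1 pattern. Over the 27 condition means, which share a line, culture times and in part a starting library, DPPA5 and UTF1 were most alike (r = 0.961 on log2(TPM + 1)). The closest gene to either was NANOG, the core pluripotency factor (r = 0.967 for DPPA5 and 0.965 for UTF1). The search for closest genes left out those below the expression minimum in every library and those listed only by a LOC symbol. KLF17 went with DPPA3 (r = 0.834) and DPPA4 (r = 0.807), and KLF4 with TFCP2L1 (r = 0.829). The least alike pair was TFCP2L1 and DPPA4 (r = −0.295). DPPA4 was closest to CKM (r = 0.940), SNTB1 (r = 0.933) and SOX2 (r = 0.930), KLF17 to DDIAS (r = 0.899) and TDGF1 (r = 0.889), KLF5 to DSP (r = 0.894), KLF4 to RND1 (r = 0.880), TFCP2L1 to SPPL3 (r = 0.936), DPPA3 to GGT1 (r = 0.908) and ESRRB to RGMA (r = 0.795).

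The course of each member was also set beside those of its neighbours in the genome. The RefSeq annotation of the assembly calJac240_pri, which is not the build of the table, was used for gene order alone. Neighbours were taken among the protein-coding genes that entered the tests, and any other genes lying between were skipped. In this order the nearest neighbours of DPPA4 were DPPA2 and NECTIN3, with r of 0.872 and −0.168 over the 27 condition means. DPPA3 lay between GDF3 (r = 0.826) and NANOG (r = 0.757), UTF1 lay between ADAM8 (r = 0.843) and KNDC1 (r = 0.393), and DPPA5 between KHDC3L (r = 0.687) and OGFRL1 (r = −0.570). The neighbours of KLF17 were KLF18 (r = −0.0053) and CCDC24 (r = 0.446), those of KLF5 were KLF12 (r = 0.184) and PIBF1 (r = 0.401), those of KLF4, ESRRB and ARGFX lay between r of −0.307 and 0.260, and TFCP2L1 ran against both of its neighbours, NABP1 (r = −0.837) and GLI2 (r = −0.700). Over 11100 adjacent pairs of genes taken in the same way the median r was 0.157 with 5th and 95th percentiles of −0.596 and 0.764, and 382 pairs, or 3.44%, reached 0.8.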

How the data were processed

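Poly(A)+ RNA of sorted or whole aggregates was sequenced single-end from strand-marked libraries. The authors mapped the reads to the genome build Callithrix_jacchus_cj1700_1.1 using STAR, dropped those of mapping quality 1 or less, estimated expression by RSEM and deposited TPM values, restricted to genes with a human one-to-one counterpart. Reads that also map to other gene copies, as can occur for retrocopied genes such as DPPA3 and DPPA5, were thus shared by estimate. TPM keeps no depth, so count tests and counting intervals could not be used, and precision was set by 2 replicates a condition. The exact permutation test of 2 against 2 libraries cannot go below p = 0.33.

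Groups came from the sample labels, and each column was matched to its sample by name. Of 14812 genes, the 11197 that reached a log2(TPM + 1) of 1.5 in 1 library or more entered the tests. On the log2 values derived from the deposited TPM table, limma 3.58.1 in R 4.3.3 was fitted with 1 mean per condition over all 54 libraries (27 residual degrees of freedom, mean-variance trend), and p-values were adjusted by Benjamini-Hochberg within each comparison. The threshold was an adjusted p of 0.01. The same code was tested on simulated data for SOX17 + BLSE against BLSE at 48 h (11197 genes): it called 200 of 200 genes changed 8-fold and 2 of the 10997 unchanged ones. The changed genes were drawn from the more abundant ones only. The simulation therefore does not show how often smaller differences, or genes as low as ESRRB and ARGFX, would be called. Alternatives were another pseudocount, no filter, only the compared libraries, a replicate block, median-ratio and quantile scaling, no trend, and each library left out. All 10 members are reported whatever their values, and further genes are named for the largest differences within fixed lists or the highest correlation with a member. The members and lists were chosen with earlier results of these data known. Median-ratio scaling shifted the median of all genes by over 0.1 on the log2 scale in some comparisons, for example −0.24 for SOX17 + BLSE against BLSE at 96 h and 0.20 for day 70 against day 6.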

Additional observations from a re-analysis of the deposited data

Results flagged for a closer look

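In these results the difference between 2 changes passed the limma interaction test. The change of KLF4 from cjESCs to tdTomato-positive cells at 96 h differed between the IWR1 route and the SOX17 route by −1.95 on the log2 scale (adjusted p = 2.8e-06): both BLSE + IWR1 libraries were below both PESFA libraries, and both SOX17 + BLSE libraries were above both DK20FA libraries. The SOX17 effect in BLSE was larger at 48 h than at 12 h for DPPA5 (by 1.53, adjusted p = 2.53e-05), KLF4 (by 1.65, adjusted p = 1.94e-04) and UTF1 (by 2.90, adjusted p = 2.71e-09), and in each of these genes both SOX17 libraries were above both BLSE libraries at each of the 2 times. With 2 libraries a condition, single libraries were not tested for standing apart.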

How the results depend on the processing

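Over the calls on single members, no alternative reversed a direction. Of 173 such calls, the side of the threshold was kept in 159 with a pseudocount of 0.1, 161 without the filter, 164 with median-ratio scaling, 169 with quantile scaling and 163 without the trend, and in 559 of 708 refits with 1 library left out. A fit of only the compared libraries, which leaves 2 residual degrees of freedom for 2 conditions, kept 50. It called 0 members, in place of the counts in the report, for cjESCs in PESFA against DK20FA (2 at an unadjusted p under 0.05), SOX17 + BLSE against BLSE at 12 h (6) and 24 h (6), SOX17 + BLSE against SOX17 + LSE at 48 h (7) and 96 h (2), BMS493 at 48 h (2), BLSE + IWR1 against SOX17 + BLSE at 96 h (1), day 20 against day 6 (6) and day 70 against day 20 (2), and it called 2 in place of 6 for BLSE + IWR1 at 96 h against cjESCs, because fewer samples estimate the spread. Median-ratio scaling gave 3 in place of 5 for SOX17 + BLSE against BLSE at 24 h, and median-ratio and quantile scaling gave 2 each in place of 1 for day 70 against day 20. For BLSE + IWR1 against SOX17 + BLSE at 96 h, the pseudocount of 0.1 (1 at an unadjusted p under 0.05), no filter and no trend each gave 0 in place of 1, and the pseudocount gave 0 (3 at an unadjusted p under 0.05) for day 70 against day 20. The cause was not tested for these. Every single call ended by scaling, pseudocount, filter or trend, such as that of ESRRB for day 70 against day 20 with the pseudocount of 0.1 (adjusted p = 0.0489), also ended with some 1 library left out.

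With 1 library left out, the counts ranged from 1 to 2 for PESFA against DK20FA, 0 to 0 for the pre-treatment, 8 to 9 for BLSE and 6 to 7 for SOX17 + BLSE at 96 h against cjESCs, 2 to 2, 3 to 5, 5 to 6 and 7 to 7 for SOX17 + BLSE against BLSE at 12, 24, 48 and 96 h, 1 to 4 and 0 to 1 for BMP4 at 48 and 96 h, 5 to 6 for BLSE + IWR1 at 96 h against cjESCs, 1 to 3 and 0 to 0 for BMS493 at 48 and 96 h, 0 to 0 for BLSE + IWR1 against SOX17 + BLSE, 0 to 0 for day 6, 2 to 4 for day 20 against day 6, 0 to 1 for day 70 against day 20, 1 to 1 for the route interaction and 3 to 3 for the time interaction.

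Replicate numbers did not pair the samples across the series as a whole. The deviations of same-numbered libraries from their condition means correlated between conditions at r of −0.271 to 0.289 (median 0.00947). For SOX17 + BLSE against SOX17 + LSE, r was 0.289 at 12 h, 0.181 at 24 h, 0.063 at 48 h and 0.117 at 96 h. For SOX17 + BLSE against BLSE, r was 0.207 at 12 h, 0.272 at 24 h, 0.020 at 48 h and 0.036 at 96 h. Pairing within the 12 and 24 h cultures was therefore not excluded. With the replicate block, all 173 calls kept their side of the threshold, and SOX17 + BLSE against BLSE at 48 h again had 6 members higher.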
